A study of Mus musculus with 15 samples.

Results

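The fibronectin leucine-rich transmembrane (FLRT) proteins and the receptors they bind were followed as 8 genes of the 52526 measured in mouse mammary tissue: the ligand genes Flrt1, Flrt2 and Flrt3, the netrin receptor genes Unc5b and Unc5c, and the latrophilin genes Adgrl1, Adgrl2 and Adgrl3. The set was chosen because the mean of Flrt2 was higher and that of Flrt3 lower in BDE-47 mice, so the group differences of these genes are given as descriptions, without a test. The study asked what prolonged, low-dose exposure to BDE-47, a brominated flame retardant, does to mammary tissue. Female nu/nu nude mice (Crl:NU-Foxn1nu, athymic animals that lack mature T cells) received either BDE-47 at a target of 0.03 mg/kg/d (n = 7) or the vehicle alone, PEG300 with 1% DMSO (n = 8), from subcutaneous osmotic mini-pumps for 16 weeks that began after 8 weeks of age. All mice of both groups carried the nu/nu genotype and a pump, and some carried a xenograft, which the labels do not give per mouse. One library per mouse was made from the left 4th mammary tissue.

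FLRT proteins are single-pass membrane proteins with a leucine-rich repeat ectodomain that reaches across to neighbouring cells. Binding to Unc5 receptors, which also bind netrins, is known chiefly to repel migrating cells and axons, whereas binding to latrophilins, adhesion G protein-coupled receptors that also bind teneurins, holds cells together and helps to build synapses. FLRT proteins also bind FGF receptors on the same cell and modulate their signalling.

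The libraries were QuantSeq 3′ FWD, which reads each transcript once near its 3′ end, so levels of different genes can be compared in CPM (reads scaled to a common total of mapped reads) without dividing by length. Values are log2(CPM), and a gene under 1 CPM in a mouse is listed at 0 (the floor). Depth ran from 10.06 to 19.58 M mapped reads per mouse, and the floor stood for 11 to 20 reads. Between 6932 and 12689 genes were above the floor per mouse. A listing at 0 need not mean that a transcript was absent, since 3 of 9 genes used by nearly every cell (Polr2a, Ppia and Tbp) were listed at 0 in at least 1 mouse. White adipocyte and luminal epithelium markers were present in every mouse, with 7 or 8 of 8 above the floor. Their mean levels were lowest among vehicle mice in replicates 6 and 8, at 4.29 and 5.38 log2(CPM) for white adipocytes, against 8.87 to 10.07 in the other vehicle mice, and at 2.43 and 3.55 for luminal epithelium, against 5.59 to 7.31. Vehicle replicates 6 and 8 also had 8 of 8 B cell markers above the floor, against 0 or 1 in the other mice, and BDE-47 replicate 6 had a mean skeletal muscle marker level of 13.03 log2(CPM), against 3.34 in the next BDE-47 mouse. In whole tissue, fewer cells of a type and less RNA per cell cannot be told apart.

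Most vehicle libraries held Flrt2 under 1 CPM, which need not mean absence, whereas most BDE-47 libraries exceeded that level. Flrt2 lies at chr12:95692006-95785215 (GRCm38, plus strand) and encodes a ligand for both Unc5 receptors and latrophilins. Among the 8 vehicle mice it was above the floor in replicate 1 alone, at 0.23 log2(CPM) from 18 reads where the floor stood at 16. In BDE-47 replicates 1 to 7 Flrt2 was 2.53, 1.54, 1.11, 0, 4.06, 3.73 and 4.29 log2(CPM), which came from 30 to 260 reads in the 6 mice above the floor. All 6 of those mice were above every vehicle mouse, and the groups overlapped through BDE-47 replicate 4, which was listed at 0. That mouse had the fewest genes above the floor of all 15, 6932, and vehicle replicate 1 had the most of the vehicle mice, 11490. Other mice went the other way. BDE-47 replicate 7, with 7135 genes above the floor, had the highest Flrt2 level, 4.29. BDE-47 replicate 3, with the most of all 15, 12689, had the lowest level above the floor in its group, 1.11. The part of the number of genes above the floor in the listing of Flrt2 was not tested. The means differed by 2.44 on the log2 scale, higher with BDE-47 (standard error 0.73, limma). With 7 of 8 vehicle mice at the floor, this size depends on how the floor is treated. It was 2.54 on log2(CPM + 1) and 4.88 on log2(CPM + 0.1). As the log2 ratio of mean CPM with 0.1 added to each mean it was 5.15. Each of these alternatives takes a value listed at 0 as 0 CPM, although it is known only to lie under 1 CPM. With vehicle replicates 6 and 8 and BDE-47 replicate 6 left out, the difference was 2.22.

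Flrt3 had the opposite distribution, near 5 log2(CPM) in most vehicle mice and listed at 0 in several BDE-47 mice. Flrt3 encodes a ligand of the same family, which in the embryo takes part in FGF signalling and tissue cohesion. Its level in vehicle replicates 1 to 8 was 3.15, 5.04, 5.54, 6.08, 5.21, 4.94, 0 and 5.55 log2(CPM), from 137 to 949 reads in the 7 mice above the floor. The 7 BDE-47 replicates had 0, 4.93, 3.83, 0, 4.26, 2.12 and 0 log2(CPM), from 85 to 451 reads in the 4 mice above the floor. The groups overlapped: vehicle replicate 7 was listed at 0, and BDE-47 replicates 2, 3 and 5 were above vehicle replicate 1. The 6 highest values all belonged to vehicle mice, but the lowest of them, 4.94 in replicate 6, was almost equal to 4.93 in BDE-47 replicate 2. The mean was lower with BDE-47 by a difference of -2.28 on the log2 scale (standard error 1.05, limma), and -2.0 with vehicle replicates 6 and 8 and BDE-47 replicate 6 left out. The Flrt3 mean over all mice was 22.6 CPM, and 26.7% of mice were listed at 0 for it, where the 1599 genes within 25% of that mean were listed at 0 in 14.7% of values. For Flrt2, with a mean of 4.11 CPM, the share of mice at 0 was 53.3%, against 47.0% for 431 genes of similar mean. These shares are over both groups together, whereas Flrt2 and Flrt3 were listed at 0 in 7 and 1 of 8 vehicle mice and in 1 and 3 of 7 BDE-47 mice.

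**Figure D1:**
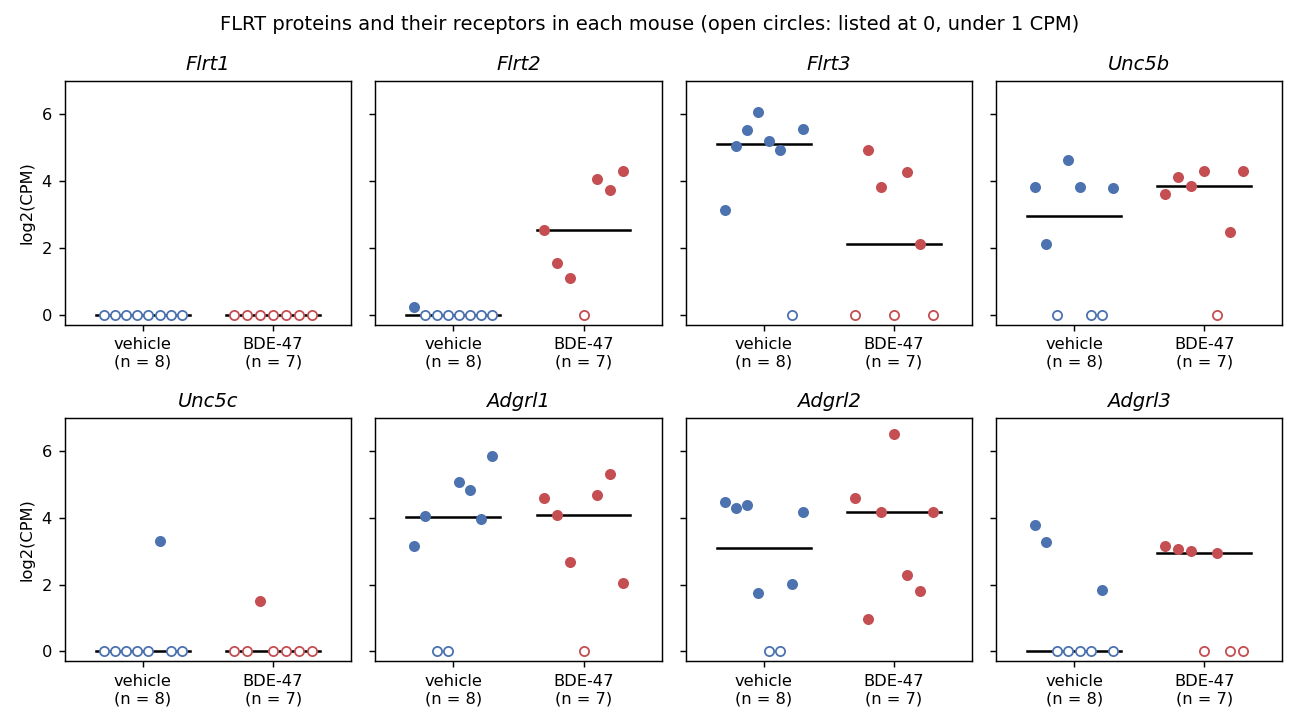
Level of each of the 8 genes in each mouse, as log2(CPM) on the vertical axis, for 8 vehicle mice (blue) and 7 BDE-47 mice (red) in order of replicate number. Open circles are listed at 0 and black bars are group medians. Flrt2 is above the floor in 1 of 8 vehicle and 6 of 7 BDE-47 mice, Flrt3 in 7 of 8 and 4 of 7, and the receptor genes overlap between the groups.

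Flrt3 also appears in the study's reference list of genes that respond to the antioxidant factor NFE2L2, where it is marked as one that goes down. The 250 bases before its start are shown for that reason. They lie at chr2:140671477-140671726 (GRCm38.p6, minus strand, RefSeq) and are printed 5′ to 3′ with every CG dinucleotide in capitals.
Flrt3 upstream: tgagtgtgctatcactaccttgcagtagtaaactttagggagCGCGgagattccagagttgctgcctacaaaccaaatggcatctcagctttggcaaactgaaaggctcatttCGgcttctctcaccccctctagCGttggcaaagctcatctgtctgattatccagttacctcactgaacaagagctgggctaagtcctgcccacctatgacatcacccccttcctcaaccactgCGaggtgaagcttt
The stretch holds 5 CG dinucleotides, against a median of 6 in the same window of 32851 mouse promoters. The core of the antioxidant response element, TGACNNNGC read on either strand, is not in it. Most of those promoters lack the core as well, since 10.2% hold it. Sequence outside these 250 bases was not searched, and whether NFE2L2 acts on Flrt3 was not tested. No matched upstream window is shown for Flrt2, because the window before its RefSeq start holds part of a longer Flrt2 transcript.

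Flrt1, the third ligand gene, was listed at 0 in all 15 mice, and no difference can be given for it. Both Flrt1 and Flrt3 lie inside another gene on the opposite strand, and the strand setting of the read counting is not given in the sources used here. Flrt1 (chr19:7087464-7166183) lies in Macrod1 (chr19:7056728-7198062), and in GENCODE M39 (GRCm39) exons of this pair overlap. Macrod1, which encodes an enzyme that removes ADP-ribose from proteins, was above the floor in 9 mice and reached 7.01 log2(CPM) in BDE-47 replicate 6 while Flrt1 was listed at 0. Flrt3 (chr2:140658198-140671476) lies in Macrod2 (chr2:140395303-142392966), a related enzyme gene, and in GENCODE M39 no exon of Macrod2 overlaps one of Flrt3. Macrod2 was above the floor in 3 mice, vehicle replicate 2 at 3.42, BDE-47 replicate 3 at 2.08 and BDE-47 replicate 6 at 3.00 log2(CPM). In each of these mice Flrt3 was above the floor as well, and Flrt3 was above it in 8 mice in which Macrod2 was not.

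The 2 ligand genes were set side by side within each mouse. Flrt3 above the floor with Flrt2 listed at 0 was the state of 6 of 8 vehicle mice and of 0 of 7 BDE-47 mice. Flrt2 above the floor with Flrt3 listed at 0 occurred in BDE-47 replicates 1 and 7 and in no vehicle mouse. Both were above the floor in vehicle replicate 1 and in BDE-47 replicates 2, 3, 5 and 6, and neither was in vehicle replicate 7 and BDE-47 replicate 4. Where both were present, Flrt3 was the higher in vehicle replicate 1 and in BDE-47 replicates 2, 3 and 5, by 2.93, 3.39, 2.72 and 0.20 log2 units, and Flrt2 was the higher in BDE-47 replicate 6, by 1.61. Thus 7 of 15 mice were in states found in both groups. The states found in 1 group follow from how the genes were chosen.

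**Figure D2:**
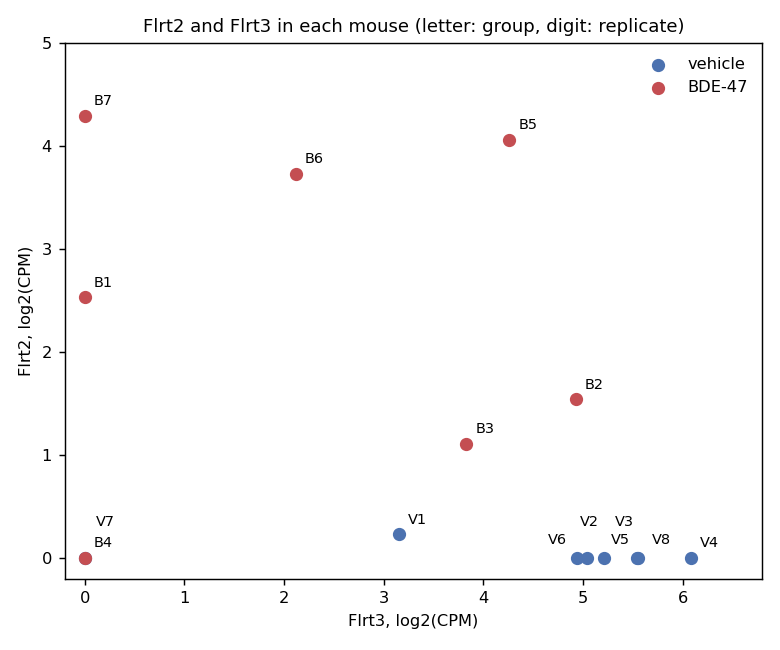
Flrt2 against Flrt3 in each mouse, both as log2(CPM), for vehicle (V, blue) and BDE-47 (B, red) mice labelled by replicate number. Vehicle mice lie along the lower edge, 6 of them at 4.94 or more for Flrt3 and at 0 for Flrt2. The points of vehicle replicate 7 and BDE-47 replicate 4 coincide at 0 for both genes.

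Among the receptor genes, Unc5b (chr10:60762594-60831581, minus strand) encodes a netrin receptor of blood vessels and neurons that FLRT proteins bind, and was the main Unc5 gene of this tissue. It ranged from 0 to 4.63 log2(CPM) in vehicle mice (median 2.96, 5 of 8 above the floor) and from 0 to 4.30 in BDE-47 mice (median 3.87, 6 of 7 above the floor). The means differed by 0.96 (standard error 1.08), less than the standard error, and the groups overlapped. BDE-47 replicate 5 was listed at 0, whereas its 6 companions lay between 2.49 and 4.30. Unc5c (chr3:141465564-141834924, plus strand), a receptor known from netrin-guided axon repulsion, was above the floor only in vehicle replicate 6, at 3.31, and BDE-47 replicate 3, at 1.52. Of the other Unc5 genes, Unc5a was likewise above the floor in 2 mice, both of the BDE-47 group, and Unc5d was listed at 0 in all 15.

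Of the latrophilin genes, Adgrl1 and Adgrl2 were present in most mice of both groups and Adgrl3 in fewer. Adgrl1 (chr8:83900098-83941954, plus strand) had 0 to 5.86 log2(CPM) in vehicle mice (median 4.02) and 0 to 5.32 in BDE-47 mice (median 4.09), with 6 mice above the floor in each group. Its means differed by -0.03 (standard error 1.05), and the sign of this difference turned when single mice were left out, from -0.51 to 0.53. For Adgrl2 (chr3:148815586-148989096, minus strand), the vehicle mice had 0 to 4.47 (median 3.10, 6 of 8 above the floor) and the BDE-47 mice 0.98 to 6.51 (median 4.19, 7 of 7 above the floor). Its highest level, 6.51, was in BDE-47 replicate 4, the mouse in which both Flrt2 and Flrt3 were listed at 0, and the means differed by 0.87 (standard error 1.07). Adgrl3 (chr5:81019085-81827825, plus strand), the latrophilin whose binding to FLRT3 is best known from synapses, was 3.80, 3.27 and 1.85 in the 3 vehicle mice above the floor and 2.94 to 3.15 in the 4 BDE-47 mice above it. The difference of its means was 0.62 (standard error 0.86), with all 4 BDE-47 values inside the vehicle range.

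Counted over the set, the mean was higher with BDE-47 for 4 genes and lower for 3, with Flrt1 equal at 0, and the median difference was 0.31 on the log2 scale. Flrt2 and Flrt3 were the 2 past a 2-fold difference of means, 1 in each direction, where 3.10% of all 52526 genes were past 2-fold higher and 3.27% past 2-fold lower. These counts depend on the floor and on single mice. With log2(CPM + 0.1), 5 members and 6613 genes in all were past 2-fold, against 2 and 3342 on the deposited scale, and without vehicle replicate 1 the number of members was 5. Of the 8 genes, 6 were above the floor in at least 7 mice and entered the limma fit of 9511 genes, while Flrt1 and Unc5c did not. Flrt2 entered with exactly 7 mice, 6 of them from the BDE-47 group. Among the 9511 genes the shares past 2-fold were 13.0% higher and 13.2% lower, the median difference was -0.02, 40 genes had a larger difference upward than Flrt2 and 87 a larger one downward than Flrt3. The fit called 0 genes (0%) at a Benjamini-Hochberg adjusted p under 0.05, with 443 at an unadjusted p under 0.05. Since the set was chosen on the differences of Flrt2 and Flrt3, nothing is read from the count of members against these shares.

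**Figure D3:**
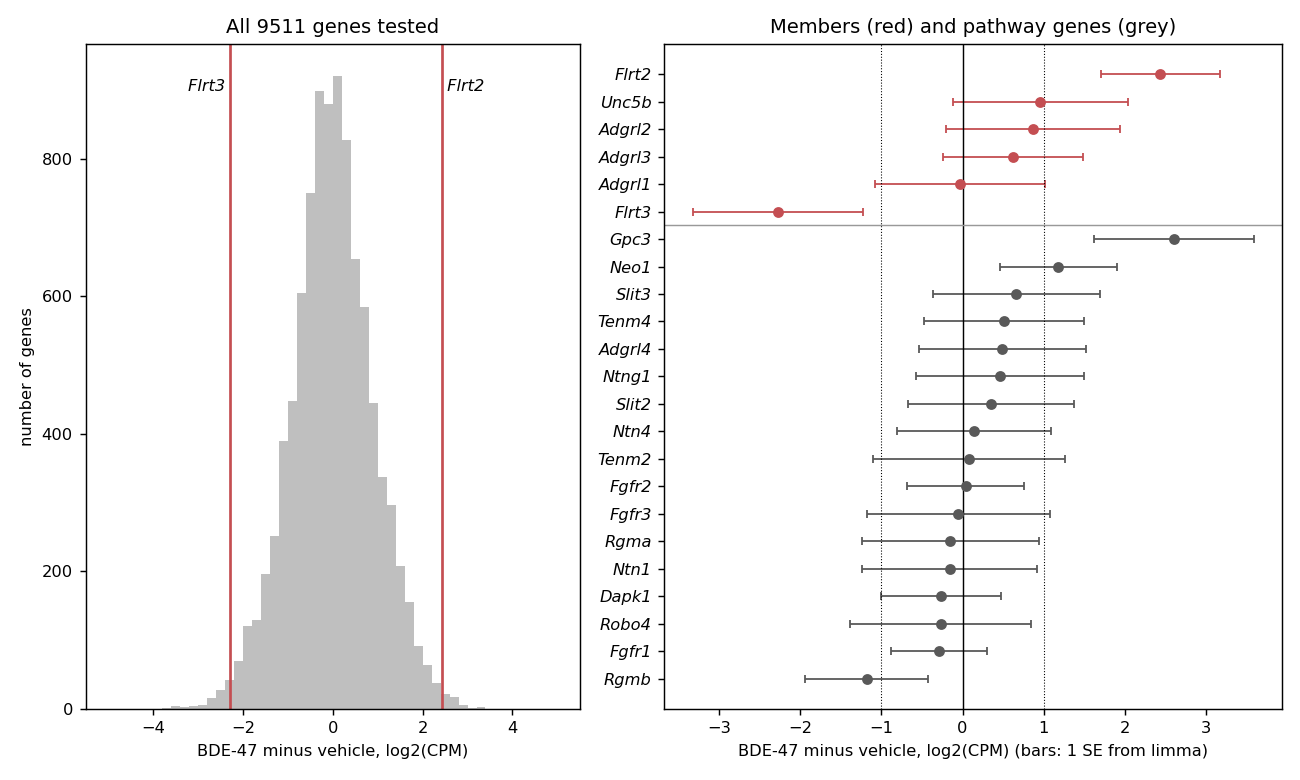
Left, histogram of the BDE-47 minus vehicle difference in mean log2(CPM) for the 9511 genes tested, with the differences of Flrt2 (2.44) and Flrt3 (-2.28) as red lines. Right, the same difference with 1 standard error from limma for the 6 tested members (red) and the 17 tested genes of the wider pathway (grey), with dotted lines at a 2-fold difference. Gpc3 (2.61) is the pathway gene farthest from 0.

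In order of mean level over all 15 mice, the genes stood as Flrt3 (3.38 log2(CPM)), Adgrl1 (3.36), Adgrl2 (3.04), Unc5b (2.73), Adgrl3 (1.41), Flrt2 (1.17), Unc5c (0.32) and Flrt1 (0). Each was compared with its neighbour in this order within the same mouse by an exact sign-flip permutation test, two-sided, adjusted over the 7 pairs. Of these pairs, 0 passed at an adjusted p under 0.05. The pair of Unc5c and Flrt1 could not pass, because Flrt1 was listed at 0 in all 15 mice and Unc5c in 13. Its exact permutation p of 0.5 is the lowest that these ties allow. Neighbours were ranked on these same means, so the pairs are those closest in level. The widest step was from Unc5b to Adgrl3, 1.32 log2 units with an SD of 2.43 over 15 mice, in which Unc5b was the higher in 10 mice and the lower in 3 (exact permutation p = 0.0566, adjusted p = 0.396). Between Flrt3 and Adgrl1 the higher gene was Flrt3 in 7 mice and Adgrl1 in 7. The order was taken over both groups together, and pairs that were not neighbours were not tested. Within groups the place of Flrt3 differed: its mean of 4.44 was the highest of the set in vehicle mice, and its mean of 2.16 in BDE-47 mice was below those of Adgrl2 (3.51), Adgrl1 (3.34), Unc5b (3.24) and Flrt2 (2.47).

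Of the wider pathway, 31 of 32 listed genes were found in the data, 17 were tested and 7 were listed at 0 in all mice. By limma, adjusted over all 9511 genes, 0 of the 17 were called higher and 0 lower (lowest adjusted p = 0.982). An unadjusted p under 0.05 was found for 1 of the 17 and for 443 of the 9511. Their differences were upward for 10 and downward for 7, with a median of 0.08. Past 2-fold there were 2 higher and 1 lower of the 17, where the shares of the 9511 genes were 13.0% higher and 13.2% lower. Nothing is read from these counts.

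Gpc3, the gene of glypican 3, a membrane proteoglycan that binds Unc5 receptors, was the one with an unadjusted p under 0.05. In vehicle mice Gpc3 was 2.04, 1.57 and 3.23 log2(CPM) in replicates 2, 3 and 7 and listed at 0 in the other 5. In BDE-47 replicates 1 to 7 it was 3.28, 4.47, 3.51, 5.73, 3.75, 3.52 and 0. Thus 6 of 7 BDE-47 mice were above every vehicle mouse, and replicate 7 was listed at 0. The difference was 2.61 on the log2 scale, with a standard error of 0.99. By limma the unadjusted p was 0.0118 and the adjusted p was 0.982, so the gene was not called. Of the 6 mice listed at 0 for Gpc3, vehicle replicates 4, 5, 6 and 8 were listed at 0 for Flrt2 as well. In vehicle replicate 1 and BDE-47 replicate 7 Flrt2 was above the floor. BDE-47 replicate 4, listed at 0 for Flrt2, had the highest Gpc3 level.

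Among the netrin receptors, Neo1, the gene of neogenin, was present in each of the 15 mice, at 2.44 to 5.69 log2(CPM) in vehicle mice (median 3.47) and 3.65 to 6.23 in BDE-47 mice (median 5.16). Its difference was 1.18 (standard error 0.72, limma adjusted p = 0.982), within ranges that overlapped. Rgmb, which encodes a ligand of neogenin and a co-receptor for bone morphogenetic proteins, differed the other way, by -1.18 (standard error 0.76, limma adjusted p = 0.982), with 6 of 8 vehicle and 3 of 7 BDE-47 mice above the floor. Rgma, its relative, differed by -0.15.

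The netrin genes Ntn1, Ntn4 and Ntng1, ligands or relatives of the ligands of Unc5 receptors, were above the floor in 7 to 9 mice and differed by -0.16, 0.14 and 0.46. The teneurins Tenm2 and Tenm4, which bind latrophilins, differed by 0.08 and 0.51. The FGF receptor genes Fgfr1 and Fgfr2 were in all 15 mice and differed by -0.29 and 0.04, and Fgfr3, in 9 mice, by -0.05. Robo4, an endothelial guidance receptor, differed by -0.27, and the Slit ligand genes Slit2 and Slit3 by 0.35 and 0.66. Adgrl4, an endothelial relative of the latrophilins that is not known as an FLRT receptor, differed by 0.49, and Dapk1, a kinase that acts below Unc5 receptors in cell death, by -0.27. All of these differences were smaller than their standard errors.

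**Figure D4:**
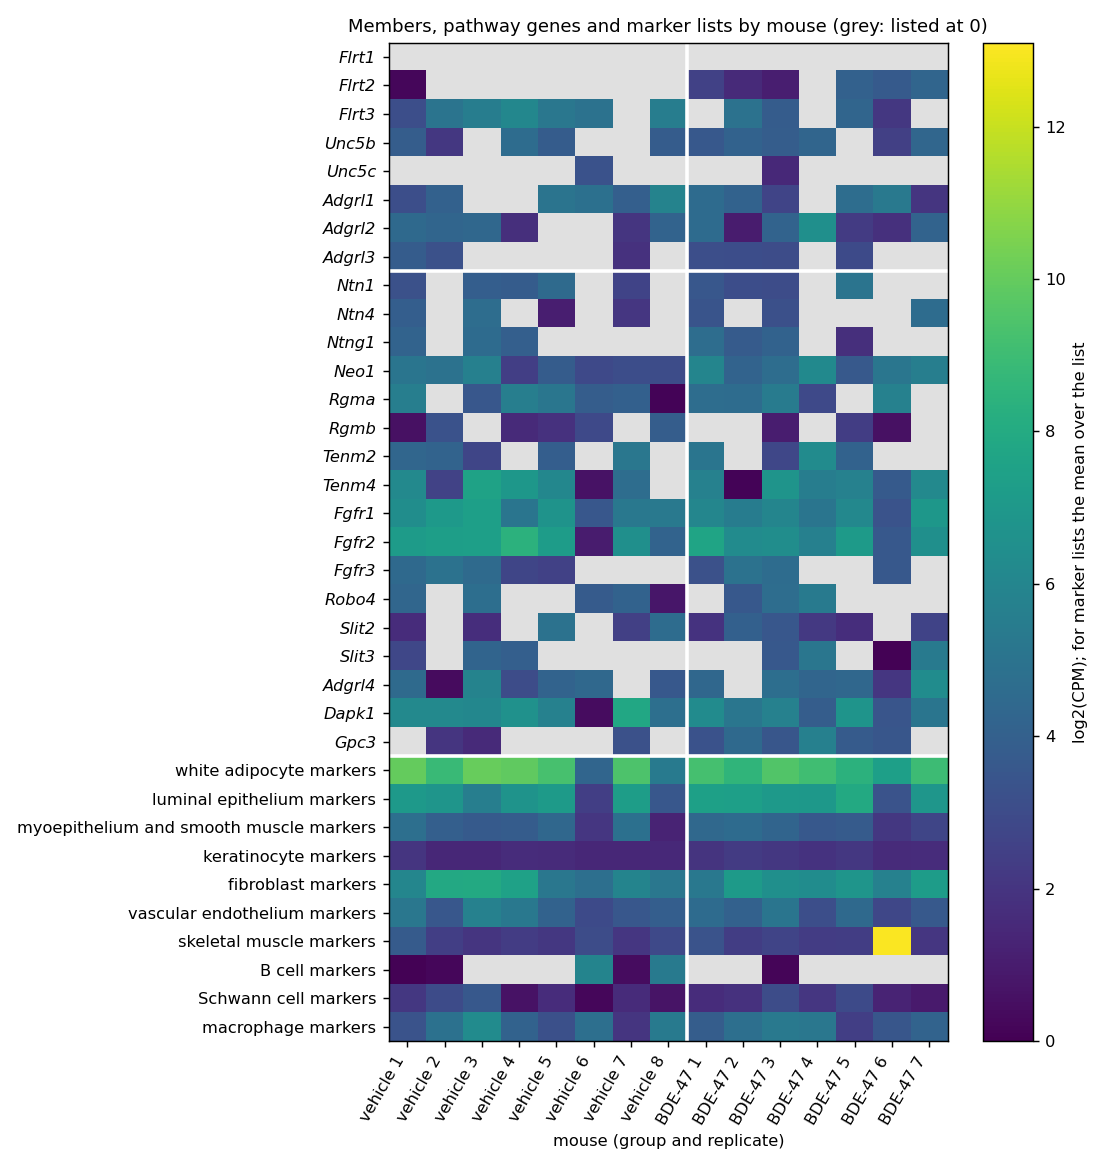
Heat map of log2(CPM) in each mouse for the 8 genes (top block), the 17 tested pathway genes (middle block) and the mean level of 10 lists of cell type markers (bottom block), with grey for listed at 0. Columns are mice, vehicle to the left of the white line and BDE-47 to the right. B cell markers stand out in vehicle replicates 6 and 8, and skeletal muscle markers (13.03) in BDE-47 replicate 6.

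To describe which tissue content went with the ligand genes, Flrt2 and Flrt3 were set against the mean level of each of 10 marker lists, with group means removed. Of 20 relations, 0 passed adjustment. Flrt2 tended to be lower where macrophage markers were higher, with Pearson's r of -0.48 (permutation p = 0.0201, adjusted p = 0.401) and Spearman's rho of -0.56 (permutation p = 0.0177, adjusted p = 0.354) over 15 mice, and r of -0.66 without vehicle replicates 3 and 7, the 2 mice farthest from the median marker level. With each mouse left out r lay between -0.57 and -0.36, the weakest value without BDE-47 replicate 5, and it was -0.32 (permutation p = 0.198, adjusted p = 0.952) with the summed CPM of the markers. Because 7 of 8 vehicle mice were listed at 0 for Flrt2, this relation rests mainly on the BDE-47 mice. For Flrt3 the highest rho was with keratinocyte markers, 0.49 (permutation p = 0.0997, adjusted p = 0.664), where Pearson's r was 0.34 (permutation p = 0.235, adjusted p = 0.82) and came to 0.07 without BDE-47 replicates 2 and 5. Luminal epithelium markers gave r of -0.14 (permutation p = 0.744, adjusted p = 0.875) and rho of 0.05 (permutation p = 0.823, adjusted p = 0.931) with Flrt2, and r was 0.11 without BDE-47 replicate 6 and vehicle replicate 6. With Flrt3 they gave r of -0.15 (permutation p = 0.603, adjusted p = 0.82) and rho of -0.05 (permutation p = 0.838, adjusted p = 0.931), and r was -0.20 without the same mice. The marker lists had members at 0 in all mice only among myoepithelium and smooth muscle (Actg2) and keratinocytes (Ivl and Dsg1a).

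The genes whose levels across mice were most like those of Flrt2, group means removed, were Lsm11 (r = 0.80 over 15 mice), Slc45a4 (0.79) and Sec22c (0.79) among 9505 genes searched. Lsm11 encodes a protein of the complex that processes histone transcripts, and Sec22c a protein of transport out of the endoplasmic reticulum. Both were above the floor in exactly the 7 mice in which Flrt2 was. Of 783 other genes above the floor in 7 mice, 5 shared those mice: Lsm11, Sec22c, Atp5s, Plekhg6 and Mib2. The last 3 were named after their values were seen. Group means were not removed for this match. The shared mice, 1 vehicle and 6 BDE-47, follow the difference on which Flrt2 was chosen, so nothing is read from the match. For Flrt3 the most alike were Olfm1 (r = 0.89), which encodes a secreted olfactomedin protein, Srd5a3 (0.85) and Slc35a1 (0.85). Olfm1 had a median of 4.96 log2(CPM) in vehicle and 4.06 in BDE-47 mice, and its means differed by -0.47. The others differed more, Srd5a3 by -1.54, Slc35a1 by -1.22, Lsm11 by 2.39 and Sec22c by 2.53. Slc45a4 differed by -1.41, the direction opposite to Flrt2. Flrt2 and Flrt3 had r of -0.02 with each other. Among the receptors in the fit, r ranged from -0.30 (Unc5b and Adgrl2) to 0.36 (Adgrl1) with Flrt2, and from -0.35 (Adgrl2) to 0.08 (Adgrl1) with Flrt3. The correlations of the genes most like Flrt2 and Flrt3 were the largest of many, whereas those among members were not picked by size. With most vehicle mice listed at 0 for Flrt2, the correlations with Flrt2 rest mainly on the BDE-47 mice. All are given without a test.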

How the data were processed

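Mammary tissue of 8 vehicle and 7 BDE-47 nude mice was profiled with QuantSeq 3′ FWD, 1 library per mouse. Per the submitters' processing notes, reads were mapped with STAR 2.5.3a to GRCm38. The authors deposited log2(CPM) for every gene and put 0 wherever a gene was under 1 CPM, and these values entered the comparisons unaltered. Low values were whole multiples of 1 read, which gave each mouse's depth (100% of values whole within 0.1 read). The floor limits precision at low levels, and count models were not used because it censors the counts.

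Of 52636 entries per mouse, 110 that repeated a name were dropped, keeping the entry with the highest mean. Groups came from the treatment labels, and mice are separate animals. Genes above the floor in at least 7 mice were fitted with limma 3.58.1 (R 4.3.3, empirical Bayes with trend, Benjamini-Hochberg adjustment over all genes tested) without covariates. The xenograft covariate of the study is not in the labels and was not used. Levels were compared within mice by exact sign-flip permutation, and marker relations by 100000 permutations within groups. The members, the 32 pathway genes and the marker lists were chosen with earlier results of these data known. Genes named were the members, pathway genes above the floor in 7 mice, the 3 genes most like Flrt2 and Flrt3, and markers at 0 in all mice. Unc5a, Unc5d, the host genes Macrod1 and Macrod2, the genes used by nearly every cell, and Atp5s, Plekhg6 and Mib2 fall outside this rule and were chosen after values were seen. Alternatives were other floors, filters and scalings, a replicate block, and mice left out. Upstream bases came from RefSeq (GRCm38.p6), with a window for 7 of 8 members. Limma and the motif search were tested on simulated data. The values simulated for limma had no floor, so that test does not cover values listed at 0. Python 3.11.15 with numpy 2.4.6, scipy 1.17.1, pandas 2.3.3 and matplotlib 3.10.9 was used.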

Additional observations from a re-analysis of the deposited data

Results flagged for a closer look

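In 10 of 70 gene or marker list groups checked, 1 mouse stood apart from the others of its group by Dixon's criterion, which chance meets in about 1 of 20 groups where values are not tied. In 4 of the 10 (Flrt2 in vehicle mice, Unc5c in both groups and the B cell list in BDE-47 mice) all other mice were tied at 0, so that any value above 0 stands apart and this rate does not apply. Among the members, vehicle replicate 1 was the one vehicle mouse with Flrt2 above the floor (0.23 log2(CPM)). BDE-47 replicate 5 was listed at 0.00 for Unc5b, where the next mouse had 2.49. Unc5c was above the floor in 1 mouse of each group, vehicle replicate 6 at 3.31 and BDE-47 replicate 3 at 1.52. Among the pathway genes, Dapk1 was at 0.43 in vehicle replicate 6, where the next vehicle mouse had 4.79, and Gpc3 was listed at 0.00 in BDE-47 replicate 7, where the next had 3.28.

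Of the marker lists, skeletal muscle in BDE-47 replicate 6 had a mean of 13.03 log2(CPM), and the same mouse was lowest of its group for luminal epithelium, at 3.33 against 6.86 in the next. The keratinocyte list was highest of the vehicle mice in replicate 1, at 2.04 against 1.66. The B cell list was 0.16 in BDE-47 replicate 3 and 0.00 in the other BDE-47 mice.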

How the results depend on the processing

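Limma called 0 genes and 0 pathway genes under every alternative fitted, 0 neighbours in the order of levels passed, and 0 marker relations did. The neighbours Unc5c and Flrt1 could not pass, with Flrt1 listed at 0 in every mouse and Unc5c above the floor in 2. With a replicate block over replicates 1 to 7, limma also called 0 genes (lowest adjusted p = 0.993). Same-numbered mice deviated together with r of -0.0177 to 0.0528, so the block stands for a shared number only. The difference of Flrt2 was 2.54 with log2(CPM + 1), 4.88 with log2(CPM + 0.1) and 5.15 as the log2 ratio of mean CPM plus 0.1. With each mouse left out it was 2.13 to 2.85. Flrt3 had -2.25, -3.28 and -1.78 under the same alternatives and -2.91 to -1.91 with each mouse left out. Genes past 2-fold numbered 3342, 6613 with log2(CPM + 0.1), of which 3620 were higher, 7640 as the ratio of mean CPM plus 0.1, of which 3466 were higher, and 3146 to 3783 with each mouse left out. Members past 2-fold numbered 5 with log2(CPM + 0.1), 4 as that ratio and 2 to 5 with each mouse left out. Unc5b, Adgrl2 and Adgrl3 joined without vehicle replicate 1 (5 members), and Unc5b and Adgrl2 without vehicle replicate 8, BDE-47 replicate 5 or BDE-47 replicate 6 (4 members each). With vehicle replicates 6 and 8 left out, Flrt2 and Flrt3 differed by 2.43 and -2.01. Leaving out BDE-47 replicate 6 as well was chosen after seeing the data. The differences of Adgrl1 and Unc5c changed sign with single mice left out, to 0.53 and 0.22.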
